A study of Homo sapiens with 9 samples.

Results

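The genes described here are the cytokine, NF-kB and interferon response genes of WI-38 cells, a diploid fibroblast line from human fetal lung. They were chosen by a pattern of symbols, with 1 symbol left out by the rule, which takes the families of interleukins, chemokines, TNF ligands and receptors, NF-kB proteins, TRAF and RIPK adaptors, JAK, STAT and SOCS proteins, interferon regulatory factors and interferon-induced genes. There were 82 such genes among the 6499 genes listed with a value, a share of 1.26%. By the GENCODE annotation 80 of them are protein coding, and IKBKGP1 and IL9RP3 are pseudogenes. The pattern also takes 5 symbols whose products are not members of these families, namely both pseudogenes, the IRF2-binding proteins IRF2BP1 and IRF2BPL, and NFKBIL1. RNA was sequenced from 3 control libraries and 3 doxorubicin libraries, all from cells at population doubling 30. Doxorubicin cells received 1 µM doxorubicin, a topoisomerase poison that breaks DNA and is used to induce senescence, for 12 h, and then medium with DMSO for 48 h. Control cells received DMSO in place of doxorubicin and the same DMSO medium for 48 h. Another group of 3 libraries, given oridonin after doxorubicin, was not analysed here. All libraries come from 1 cell line at 1 dose and 1 time, and the labels do not say whether they come from separate cultures, so that p-values measure only the spread between these libraries.

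Values are in TPM, a level scaled to transcript length and library total, and the unit was inferred because the table does not name it. Changes are log2 fold changes of TPM + 1, doxorubicin minus control, with their standard error (SE), and a gene is said to have risen or fallen at a limma Benjamini-Hochberg adjusted p under 0.05. The table holds only genes that the authors' own comparison had found changed between the same libraries, although the TPM means of 11 of the 82 genes differed by less than 1.2-fold, so the test here describes the size and spread of the changes and is not independent of that choice. Of all genes tested, 76.9% passed. The median gene had a log2 fold change of -0.28 on the deposited scale, -0.01 after quantile normalization and -0.08 after median ratio scaling. For the 4203 genes averaging 5 TPM or more the median was 0.05, so the shift on the deposited scale depended on the lower genes. Changes are read against these medians, which are medians of genes already chosen as changed and not a level of unchanged genes. Both rescalings were computed on the same chosen genes, so they do not show which scale is right. The libraries correlated at 0.992 to 0.995 within a group and at 0.935 to 0.958 between groups, so that no library stood apart by this measure. Of 12 fibroblast markers 6 had a value, with COL1A1 at 2913, 2780.1 and 2781 TPM in the controls, against 1897, 1734 and 2201 TPM after doxorubicin, and COL1A1, COL1A2, COL3A1, PDGFRA and PDGFRB were lower and FN1 higher after doxorubicin. Of 11 immune cell markers 2 had a value. PTPRC, the defining marker of leukocytes, was at 0.01 to 0.12 TPM in the controls and 0.1 to 0.62 TPM after doxorubicin, and CD68, a lysosomal protein that fibroblasts also make, changed from 47.2 ± 2.06 to 91.3 ± 3.41 TPM (SD, n = 3). Of 9 epithelial and endothelial markers 3 had a value, and KRT18 and KRT19 were higher after doxorubicin. The part of these marker changes in the results below was not tested, and in bulk RNA fewer cells of a type and less RNA per cell cannot be told apart.

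In unstimulated cells NF-kB dimers are held in the cytoplasm by IkB proteins. Receptors for TNF, IL1 and microbial products recruit TRAF and RIPK adaptors that activate the IKK kinases, IkB is destroyed and NF-kB switches on chemokine and cytokine genes, its own inhibitors among them. Cytokines of the IL6 family bind receptors that share the signal chain gp130, which acts through JAK kinases and STAT factors and is shut off by SOCS proteins. Interferons act through the same kinases on STAT factors and IRF9, and DNA in the cytoplasm is sensed by cGAS, which leads through IRF3 to interferon genes. Senescent fibroblasts are known for a secretory phenotype rich in such cytokines.

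The 2 transcription factor families have well known DNA motifs, and stretches of promoters that hold them are shown because genes with a motif changed in both directions. RefSeq promoters (GRCh38.p14, 250 bases before to 50 after a gene start) were found by symbol for 59 of the 82 genes. These RefSeq starts can differ from the GENCODE gene positions used elsewhere in the text. The stretches of ISG15, CXCL2 and CXCL3 lie within their GENCODE gene spans. Those of IL32 and NFKB1 lie partly within theirs, with the match inside the span for IL32 and before it for NFKB1. The kB motif is a 10-base consensus of NF-kB, and the capitals mark its matches on either strand, with overlapping matches joined.
CXCL2 (chr4:74099248-74099288, minus strand): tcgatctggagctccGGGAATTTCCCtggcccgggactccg
CXCL3 (chr4:74038743-74038783, minus strand): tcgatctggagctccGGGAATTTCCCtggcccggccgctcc
NFKB1 (chr4:102501295-102501334, plus strand): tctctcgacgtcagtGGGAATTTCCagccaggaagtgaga
NFKBIA (chr14:35404806-35404845, minus strand): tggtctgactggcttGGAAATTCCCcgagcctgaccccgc
IL32 (chr16:3065289-3065329, plus strand): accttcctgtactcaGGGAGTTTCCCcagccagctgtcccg

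CXCL2, CXCL3 and NFKB1 fell, IL32 rose and NFKBIA did not pass the test. The stretches of CXCL2 and CXCL3 are identical over their first 34 of 41 bases. A kB match lay in at least 1 promoter of 19 of the 59 genes (32.2%), against 13.3% of all 27305 symbols with a promoter. It was found in 2 of 11 genes that rose, in 11 of 32 that fell, in 4 of 10 that did not pass and in 2 of 6 that were too low to test. The interferon-stimulated response element was searched on both strands as a pair of GAAA repeats with any 2 bases between them. The capitals mark matches, which read as TTTC repeats where they lie on the other strand. A further match in IFI6 (at -93 from the gene start) and in IFIT5 (at -4) runs past the end of the stretch and is not marked.
ISG15 (chr1:1013369-1013414, plus strand): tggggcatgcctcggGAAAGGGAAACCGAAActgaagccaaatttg
IFI6 (chr1:27672283-27672363, minus strand): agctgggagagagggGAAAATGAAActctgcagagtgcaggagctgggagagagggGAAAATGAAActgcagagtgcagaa
IFIT1 (chr10:89392492-89392544, plus strand): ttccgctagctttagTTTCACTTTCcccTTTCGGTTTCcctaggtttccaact
IFIT5 (chr10:89414508-89414567, plus strand): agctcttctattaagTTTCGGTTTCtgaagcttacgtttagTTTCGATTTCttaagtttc

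ISG15 and IFI6 rose, while IFIT1 and IFIT5 fell. This element lay in a promoter of 10 of the 59 genes (16.9%), against 4.38% of all symbols, and was found in 2 of 11 genes that rose, 5 of 32 that fell, 1 of 10 that did not pass and 2 of 6 too low to test. The genes have 94 promoter windows for 59 symbols, so some were searched in more than 1 window. Counted over windows, the kB motif was in 22.3% of those 94 and 11.3% of all 35116, and the interferon element in 11.7% and 3.57%. A match is a description of these letters and not a bound site.

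Of the 82 genes 68 reached a mean of 1 TPM over the 6 libraries and were tested. Of these, 16 rose and 38 fell after doxorubicin, 54 in all, against a background in which 76.9% of all genes tested passed, 28.2% upwards and 48.7% downwards. The control and doxorubicin libraries did not overlap for 55 of the 68 genes (80.9%), against 80.7% of all genes tested. These shares are close to the background, and the direction of single genes and of the role groups is what the rest of the text describes. The median log2 fold change of the 68 genes was -0.45, which is 0.17 below the median of all genes, and 39 of the 68 genes lay below that median. With the same limit of 5 TPM the members lay 0.41 below the median of all genes. After quantile normalization 24 rose and 23 fell, where the background was 37.8% upwards and 30.4% downwards. After median ratio scaling 28 rose and 34 fell, against 44.6% and 40.0%. Without the 5 symbols outside the families 16 of 63 rose and 37 fell, and after quantile normalization 20 rose and 22 fell, a comparison chosen after seeing the data. On all 3 scales 15 genes rose and 23 fell, and no gene that passed on one scale passed in the opposite direction on another. The summed level of the 82 genes was 2503.5 to 2613.4 TPM in the control libraries and 2394.1 to 2544.9 TPM in the doxorubicin libraries, and these totals overlapped.

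**Figure D1:**
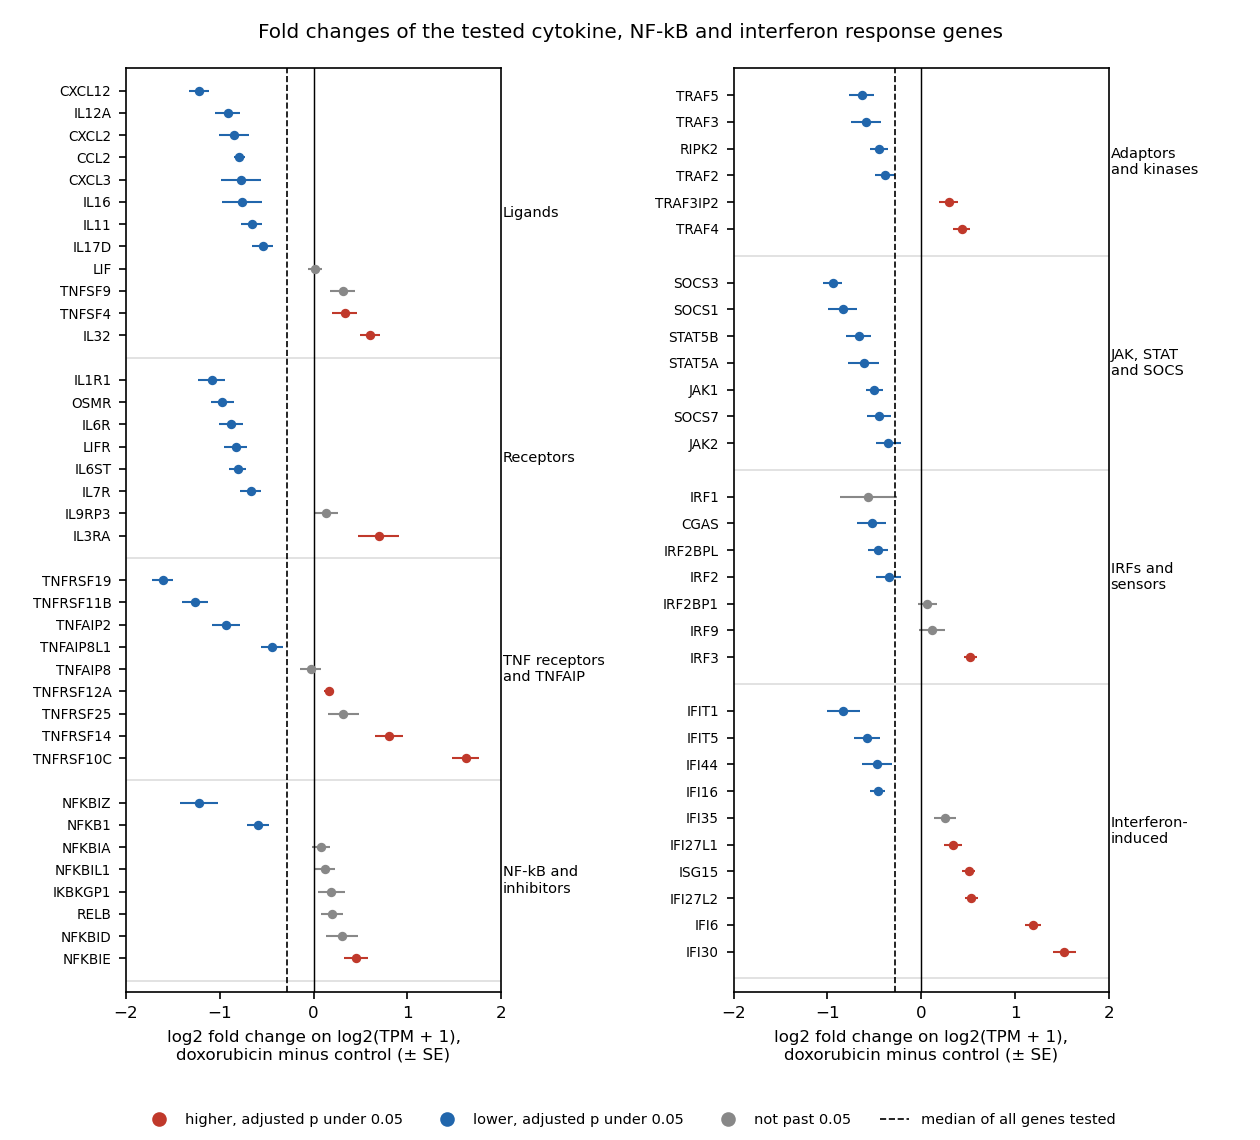
Log2 fold change of log2(TPM + 1), doxorubicin minus control, with its SE (3 libraries a group) for 67 of the 68 tested genes in their role groups. Red points rose and blue points fell at an adjusted p under 0.05, grey points did not pass, and the dashed line is the median of all genes tested at -0.28. Most receptor points lie left of the dashed line, and the interferon-induced genes lie on both sides of 0.

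Levels differed widely. In the mean of the 6 libraries 7 genes were over 100 TPM, among them TNFRSF12A, IFI27L2, ISG15, CCL2, TNFRSF11B and LIF, and 37 genes were over 10 TPM.

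The chemokines and interleukins tested here, only a part of the secreted signals, were mostly lower after doxorubicin on the deposited scale. Of 12 tested ligands 8 fell (CXCL12, IL12A, CXCL2, CCL2, CXCL3, IL16, IL11 and IL17D), 2 rose (IL32 and TNFSF4), and LIF and TNFSF9 did not pass. The share that fell was 66.7%, against 48.7% of all genes tested. Their median log2 fold change was -0.71, which is 0.43 below the median of all genes on the deposited scale and also after quantile normalization. On that second scale 3 rose (25.0%, against 37.8%) and 5 fell (41.7%, against 30.4%). CCL2 (chr17:34255218-34257203, GRCh38), which attracts monocytes, was the most abundant of them, at 311, 283 and 304 TPM in control cells and 171, 178 and 169 TPM in treated cells. All doxorubicin libraries lay below all controls, at 57.7% of the control mean (log2 fold change -0.79 ± 0.06, adjusted p = 2.09e-06). CXCL12 (chr10:44370165-44386493), the ligand of CXCR4 that holds stem cells and leukocytes in place, stood at 20.4, 19.97 and 19.7 TPM in controls and 7.82, 7.2 and 9.12 TPM after doxorubicin. The controls were within 1 TPM of each other and the treated libraries were at 40.2% of their mean (log2 fold change -1.22 ± 0.11, adjusted p = 9.95e-06). CXCL2, which attracts neutrophils and carries the kB motif shown above, was at 11.1, 9.07 and 7.99 TPM in controls and 4.36, 4.02 and 6.03 TPM after doxorubicin. It fell to 51.1% (log2 fold change -0.85 ± 0.16, adjusted p = 0.00109). IL12A, the p35 chain shared by IL12 and IL35, read 10.5, 7.64 and 9.66 TPM in controls and 4.42, 4.78 and 4.06 TPM after doxorubicin. Again no library overlapped (log2 fold change -0.92 ± 0.14, adjusted p = 2.63e-04). The neutrophil chemokine CXCL3 changed from 1.83 to 0.64 TPM and IL16, which attracts CD4+ cells, from 1.81 to 0.6 TPM, with calls that were lost after quantile normalization (adjusted p = 0.093 and 0.0769). IL11, an IL6 family cytokine that acts on stromal cells, changed from 18.4 to 11.3 TPM (log2 fold change -0.66 ± 0.11, adjusted p = 6.19e-04), and IL17D from 4.19 to 2.56 TPM, a call also lost after quantile normalization (adjusted p = 0.135). CXCL2 and CXCL3 are close paralogs, and reads shared between them could have been split by the authors' counting.

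LIF, another IL6 family cytokine, did not follow the ligands that fell. Its level was 123, 118 and 112 TPM in the controls, against 114, 113 and 131 TPM after doxorubicin. The groups overlapped (log2 fold change 0.01 ± 0.07, adjusted p = 0.872). LIF was 0.29 above the median of all genes, but not above the median of 0.05 for genes averaging 5 TPM or more. Its fold change was -0.06 after quantile normalization, while median ratio scaling gave 0.25 with an adjusted p of 0.00838, so its direction was not settled by these scales. IL32, a cytokine that induces others in myeloid cells, was at 32.4, 28.8 and 38.5 TPM in controls and at 49.7, 55 and 47.6 TPM after doxorubicin. It rose to 153% of the control mean (log2 fold change 0.60 ± 0.11, adjusted p = 7.50e-04). TNFSF4, the OX40 ligand, had the smaller rise of the 2 ligands that rose, from 2.9 to 3.92 TPM (log2 fold change 0.33 ± 0.13, adjusted p = 0.0406), and this call was lost without control replicate 1 (adjusted p = 0.133), control replicate 2 (0.0856), doxorubicin replicate 1 (0.0667) or doxorubicin replicate 3 (0.124). TNFSF9, the 4-1BB ligand, had means of 0.913 TPM in controls and 1.38 TPM after doxorubicin and missed the threshold (adjusted p = 0.0522), passing it after quantile normalization (adjusted p = 0.00581), without control replicate 2 (adjusted p = 0.0404) and with no filter on low values (adjusted p = 0.0314).

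Of a list of 20 core secreted cytokines, 7 had a value: CXCL2, CXCL3, CXCL12, CCL2, CCL5, IL11 and LIF. IL1A, IL1B, IL6, CXCL8, CXCL1, CXCL10, CCL20, CSF2, TNF, IFNB1, IL33, IL15 and IL18 were not analysed here. PTGS2, the prostaglandin synthase of inflammation, was not analysed here either.

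**Figure D2:**
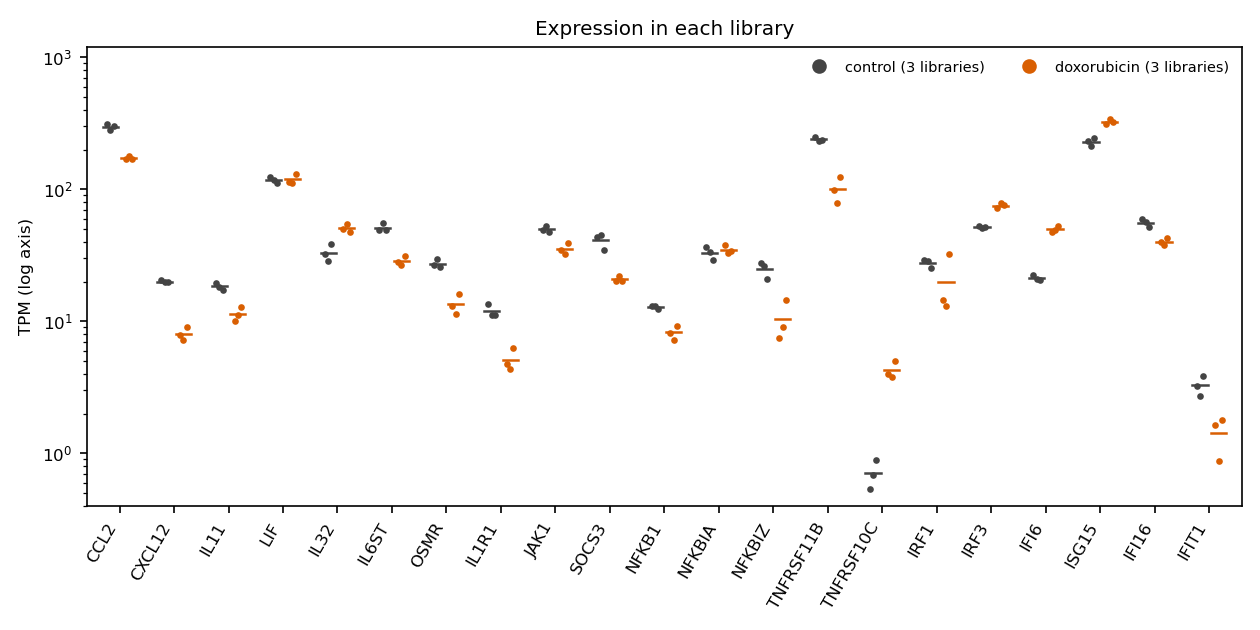
TPM on a log axis in each of the 3 control libraries (grey) and 3 doxorubicin libraries (orange) for 21 of the genes, with a bar at each group's mean. CCL2, CXCL12 and the IL6 family receptors separate downwards, ISG15 and IFI6 separate upwards, LIF and NFKBIA overlap, and doxorubicin replicate 3 of IRF1 lies above all control libraries.

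The tested receptors for such signals were mostly lower too. Of 8 tested receptor genes 6 fell, all of them also after quantile normalization and median ratio scaling, 1 rose (IL3RA), and the pseudogene IL9RP3 did not pass, although it did upwards after quantile normalization (adjusted p = 0.00963) and median ratio scaling (0.0451). The median was -0.82, and 0.54 below the median of all genes. The 6 that fell were 75.0% of those tested, as deposited and after quantile normalization, against 48.7% and 30.4% of all genes. The receptors of the IL6 family fell together. IL6ST (chr5:55935095-55994993), the shared signal chain gp130, was at 48.8, 55.4 and 49.5 TPM in control libraries and 28.1, 26.9 and 31.5 TPM in doxorubicin libraries. Every treated library lay below every control, at 56.3% of the control mean (log2 fold change -0.81 ± 0.09, adjusted p = 3.69e-05). OSMR (chr5:38845858-38945596), which pairs with gp130 to bind oncostatin M, read 26.7, 29.5 and 25.8 TPM in controls and 13, 11.4 and 16.2 TPM after doxorubicin. It fell to 49.6% (log2 fold change -0.97 ± 0.13, adjusted p = 1.08e-04). LIFR, the partner of gp130 for LIF, was lower in level at 2.34, 2.56 and 2.72 TPM in controls and 0.99, 0.92 and 1.06 TPM after doxorubicin. Its treated libraries held 39% of the control mean (log2 fold change -0.83 ± 0.12, adjusted p = 2.51e-04). IL6R, which binds IL6 itself, stood at 2.97, 3.8 and 3.13 TPM in controls and 1.42, 1.16 and 1.42 TPM after doxorubicin. No library overlapped (log2 fold change -0.88 ± 0.13, adjusted p = 2.68e-04). LIF thus did not pass the test while both chains of its receptor fell.

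IL1R1, the signalling receptor of IL1, had the lowest fold change of the receptors on log2(TPM + 1), while LIFR and IL6R kept smaller shares of their control means. It was at 13.6, 11.1 and 11.2 TPM in control cells and 4.76, 4.39 and 6.24 TPM in treated cells. The groups were apart, with the treated mean at 42.9% of the control mean (log2 fold change -1.09 ± 0.14, adjusted p = 1.19e-04). IL7R, the receptor chain for IL7 and TSLP, changed from 29.4 to 18.1 TPM (log2 fold change -0.67 ± 0.11, adjusted p = 5.97e-04). IL3RA, the receptor chain for IL3, lies in the region that X and Y share, and was low, at 1.68, 0.69 and 0.55 TPM in controls and 1.72, 1.81 and 2.9 TPM after doxorubicin. Control replicate 1 nearly reached the lowest treated library, and the rise (log2 fold change 0.70 ± 0.22, adjusted p = 0.0156) was lost without control replicate 2 (adjusted p = 0.0527), control replicate 3 (0.0561) or doxorubicin replicate 3 (0.0594).

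TNF receptors and TNF-induced genes held the widest changes in both directions. Of 9 tested, 3 rose (33.3%), 4 fell (44.4%) and 2 did not pass, and their median was -0.03. After quantile normalization 3 rose and 3 fell (33.3% each). Shares over all genes tested were close, at 28.2% and 48.7%, or 37.8% and 30.4% after quantile normalization. TNFRSF19 (chr13:23570370-23676104), an orphan receptor known as TROY, was at 27.2, 21.9 and 22.5 TPM in control libraries and 6.81, 7.37 and 7.24 TPM in doxorubicin libraries. It had the lowest fold change of the 68 genes, at 29.9% of the control mean (log2 fold change -1.61 ± 0.11, adjusted p = 1.50e-06). TNFRSF11B, osteoprotegerin, the secreted decoy for RANKL, was among the most abundant, at 249, 232 and 236 TPM in controls and 99.3, 78.4 and 125 TPM after doxorubicin. The treated libraries spread widely but stayed below all controls (log2 fold change -1.26 ± 0.14, adjusted p = 8.80e-05). TNFAIP2, a gene induced by TNF, read 8.88, 6.85 and 6.71 TPM in controls and 3.72, 3.82 and 2.74 TPM after doxorubicin. It fell to 45.8% (log2 fold change -0.94 ± 0.15, adjusted p = 3.90e-04). TNFAIP8L1 changed from 3.86 to 2.58 TPM, a call lost after quantile normalization (adjusted p = 0.525).

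In the other direction, TNFRSF10C, a membrane decoy receptor for the death ligand TRAIL that has no signalling domain, had the highest fold change of the 68 genes. Its libraries read 0.54, 0.68 and 0.89 TPM in controls and 3.99, 3.78 and 4.99 TPM after doxorubicin. The treated mean was 605% of the control mean (log2 fold change 1.62 ± 0.14, adjusted p = 7.99e-06), and the fold change on TPM + 1 understates the change of a gene this low. It lies in a cluster of closely related receptor genes whose reads the counting could have shared. TNFRSF14, the receptor HVEM, changed from 5.3 to 10.1 TPM (log2 fold change 0.81 ± 0.15, adjusted p = 8.43e-04). TNFRSF12A, the receptor of TWEAK, was the most abundant of the 82 genes, at 423, 425 and 399 TPM in controls and 442, 472 and 482 TPM after doxorubicin. Its rise was small (log2 fold change 0.16 ± 0.06, adjusted p = 0.0206), and it was lost after quantile normalization (adjusted p = 0.586) and without control replicate 3 (adjusted p = 0.0839). TNFRSF25 and TNFAIP8 did not pass (adjusted p = 0.0896 and 0.789). TNFRSF25 passed, upwards, after quantile normalization and without control replicate 1 (adjusted p = 0.0133). TNFRSF1A, the main TNF receptor, was not analysed here.

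Of 6 NF-kB subunits and inhibitors, 2 fell, 1 rose and 3 did not pass on the deposited scale, and after quantile normalization 3 rose and 2 fell. The background was 28.2% upwards and 48.7% downwards, or 37.8% and 30.4% after quantile normalization. The median of these 6 genes, 0.14, was 0.42 above the median of all genes. All but NFKBID averaged over 5 TPM, and the median of 0.05 for genes at that level lies closer to theirs. NFKBIL1 and the pseudogene IKBKGP1, grouped with them by symbol, did not pass on the deposited scale (adjusted p = 0.318 and 0.239) and passed upwards after quantile normalization (adjusted p = 0.0183 and 0.0232). NFKB1 (chr4:102501329-102617302), which encodes the p105 precursor of the p50 subunit, was at 13, 13.1 and 12.5 TPM in control libraries and 8.23, 7.24 and 9.26 TPM in doxorubicin libraries. The tight controls lay above all treated libraries (log2 fold change -0.59 ± 0.11, adjusted p = 0.00123). NFKBIZ, an inducible nuclear IkB protein that works as a coactivator, had 27.5, 26.1 and 20.9 TPM in controls and 7.49, 9.07 and 14.5 TPM after doxorubicin. It fell to 41.6%, with doxorubicin replicate 3 the nearest to the controls (log2 fold change -1.23 ± 0.20, adjusted p = 6.52e-04). NFKBIA (chr14:35401511-35404749), the IkB alpha inhibitor that NF-kB induces, read 36.5, 33.4 and 29.4 TPM in controls and 37.6, 33.1 and 34.1 TPM after doxorubicin. The groups overlapped (log2 fold change 0.08 ± 0.10, adjusted p = 0.451). It passed upwards after median ratio scaling (adjusted p = 0.0137) and not after quantile normalization (adjusted p = 0.136). NFKBIE, IkB epsilon, was at 11.1, 8.51 and 8.16 TPM in controls and 13.9, 13 and 12 TPM after doxorubicin. It rose to 140.0% (log2 fold change 0.46 ± 0.13, adjusted p = 0.00927). RELB, a subunit of the alternative NF-kB pathway, had means of 10.4 TPM in controls and 12.1 TPM after doxorubicin and NFKBID of 3.15 TPM in controls and 4.2 TPM after doxorubicin, neither past the threshold on the deposited scale (adjusted p = 0.142 and 0.129) and both upwards after quantile normalization (adjusted p = 0.00509 and 0.00509). NFKBID also passed, upwards, without doxorubicin replicate 1 (adjusted p = 0.028). RELA, NFKB2, IKBKB and IKBKG were not analysed here.

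Adaptors and kinases that link receptors to NF-kB were split. Of 6 tested, 4 fell (66.7%, against 48.7% of all genes tested) and 2 rose (33.3%, against 28.2%), and the median was -0.42. After quantile normalization 2 rose (33.3%, against 37.8%) and 1 fell (16.7%, against 30.4%). TRAF5, an adaptor of TNF receptors, was at 4.2, 3.89 and 3.59 TPM in controls and 1.75, 2.26 and 2.48 TPM after doxorubicin. It fell on the deposited scale (log2 fold change -0.63 ± 0.13, adjusted p = 0.00192) and missed the threshold after quantile normalization (adjusted p = 0.0614). TRAF3, which restrains the alternative NF-kB pathway, read 8.29, 10.9 and 7.1 TPM in controls and 6.42, 4.9 and 5.06 TPM after doxorubicin. Its fall (log2 fold change -0.59 ± 0.16, adjusted p = 0.00752) was also lost after quantile normalization (adjusted p = 0.194), as was that of TRAF2, which changed from 7.73 to 5.68 TPM (adjusted p = 0.824, and 0.0814 after median ratio scaling). RIPK2, the kinase of NOD receptors, stood at 23, 25.1 and 22.6 TPM in controls and 15.5, 17.2 and 18.2 TPM in treated libraries. It fell on all 3 scales (log2 fold change -0.45 ± 0.10, adjusted p = 0.00221). TRAF4 read 33.8, 31.8 and 38 TPM in controls and 44.4, 45.2 and 51.2 TPM after doxorubicin. It rose to 136% (log2 fold change 0.43 ± 0.09, adjusted p = 0.00198). TRAF3IP2, the adaptor of the IL17 receptor, changed from 13.4 to 16.6 TPM (log2 fold change 0.29 ± 0.10, adjusted p = 0.0211), a call lost without control replicate 1 (adjusted p = 0.0611) or doxorubicin replicate 3 (0.0503). MYD88, TRAF6 and RIPK1 were not analysed here.

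**Figure D3:**
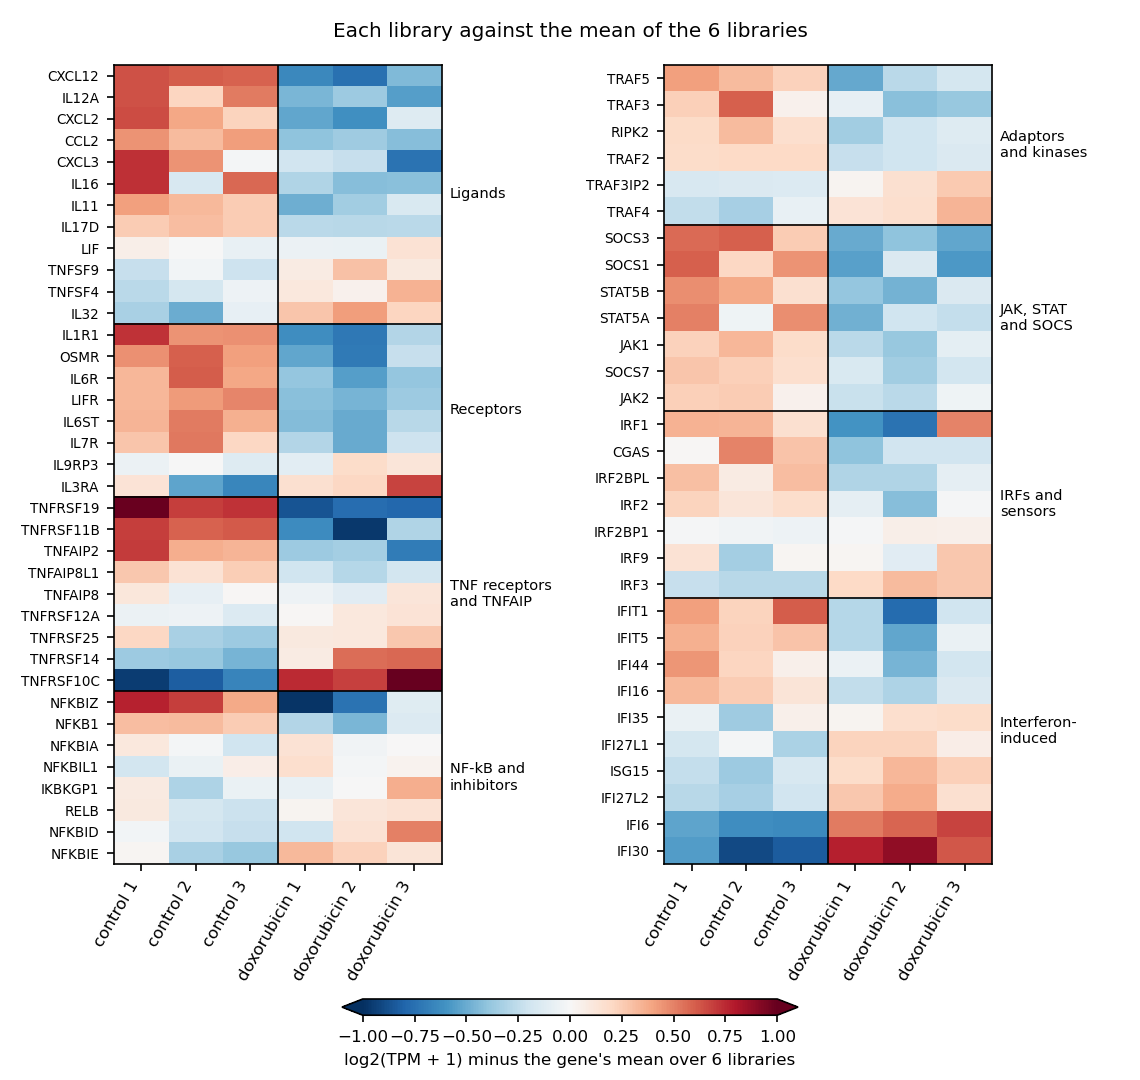
Log2(TPM + 1) in each library minus the gene's mean over the 6 libraries, for 67 of the 68 tested genes by role group, with red above and blue below that mean and colours saturated beyond 1. The 3 libraries of a group mostly share a colour, with exceptions such as doxorubicin replicate 3 of IRF1 and control replicate 1 of IL3RA.

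Of the kinases, factors and brakes behind cytokine receptors, 7 of the 8 tested fell (87.5%, against 48.7% of all genes tested). Their median of -0.56 was 0.28 below the median of all genes. After quantile normalization 3 fell (37.5%, against 30.4%). JAK1 (chr1:64833229-64966504), the kinase shared by gp130 and interferon receptors, was at 49.4, 53 and 47.9 TPM in control libraries and 34.5, 32.1 and 39 TPM in doxorubicin libraries. It fell to 70.3% (log2 fold change -0.50 ± 0.09, adjusted p = 7.21e-04), on all 3 scales. SOCS3 (chr17:78356778-78360077), the inhibitor that gp130 and STAT3 induce, read 43.8, 44.8 and 35 TPM in controls and 20.4, 21.9 and 20.1 TPM after doxorubicin. The treated libraries were tightly grouped at 50.5% of the control mean (log2 fold change -0.95 ± 0.10, adjusted p = 4.00e-05). SOCS1, the corresponding brake on interferon signalling, had 7.37, 5.38 and 6.53 TPM in controls and 2.79, 4.01 and 2.72 TPM after doxorubicin. It fell (log2 fold change -0.84 ± 0.16, adjusted p = 9.90e-04), and its adjusted p was 0.0525 after quantile normalization. STAT5B was at 10.6, 9.9 and 8.39 TPM in controls and 5.42, 5.06 and 6.6 TPM after doxorubicin. It fell on all 3 scales (log2 fold change -0.67 ± 0.13, adjusted p = 0.00145). STAT5A, its close paralog, read 4.08, 2.49 and 3.95 TPM in controls and 1.57, 2.13 and 2.04 TPM in treated libraries. The fall (log2 fold change -0.61 ± 0.17, adjusted p = 0.00725) was lost after quantile normalization (adjusted p = 0.171), and reads shared by these 2 paralogs could have been split. SOCS7 changed from 2.12 to 1.28 TPM, a call lost after quantile normalization (adjusted p = 0.167). JAK2 changed from 1.82 to 1.21 TPM, with an adjusted p of 0.0319 that was lost after quantile normalization (adjusted p = 0.583) and without control replicate 1 (0.0871), control replicate 2 (0.0836), doxorubicin replicate 1 (0.0905) or doxorubicin replicate 2 (0.0897).

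STAT3, IFNAR1 and IFNGR1 were not analysed here.

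Among 4 interferon regulatory factors and the DNA sensor, 2 fell, 1 rose and 2 did not pass, and after quantile normalization the rise of IRF3 was the one call left. The background was 28.2% upwards and 48.7% downwards, or 37.8% and 30.4% after quantile normalization. The IRF2-binding proteins IRF2BPL and IRF2BP1 were grouped with these factors by symbol. IRF3 (chr19:49659569-49665875), which switches on interferon genes once phosphorylated, was at 53.2, 51.3 and 51.5 TPM in controls and 72.2, 78.2 and 75.5 TPM after doxorubicin. It rose to 145% with little spread in either group (log2 fold change 0.53 ± 0.07, adjusted p = 9.28e-05), on all 3 scales. CGAS, the sensor of DNA in the cytoplasm, was low, at 1.04, 1.86 and 1.46 TPM in controls and 0.53, 0.77 and 0.77 TPM after doxorubicin. It fell on the deposited scale (log2 fold change -0.53 ± 0.16, adjusted p = 0.0109) and not past the threshold after quantile normalization (adjusted p = 0.165). IRF2BPL, not itself a regulatory factor, read 21.4, 18.2 and 21.5 TPM in controls and 13.7, 13.7 and 16.1 TPM after doxorubicin. It fell on all 3 scales (log2 fold change -0.46 ± 0.11, adjusted p = 0.00347). IRF2, which competes with IRF1 for its sites, had 8.79, 8.12 and 8.46 TPM in controls and 6.86, 5.25 and 7.33 TPM in treated libraries. Its fall (log2 fold change -0.35 ± 0.13, adjusted p = 0.0331) was near the median of all genes and was lost after quantile normalization (adjusted p = 0.993) and median ratio scaling (0.231), and also without control replicate 1 (0.0969), 2 (0.055) or 3 (0.0703) or without doxorubicin replicate 1 (0.0516) or 2 (0.112).

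IRF1 (chr5:132481609-132490798), an interferon-induced factor with a kB match in its promoter, was at 29, 28.9 and 25.4 TPM in control libraries and 14.6, 13.2 and 32.2 TPM in doxorubicin libraries. Doxorubicin replicates 1 and 2 lay below all controls and doxorubicin replicate 3 lay above them, so the groups overlapped (log2 fold change -0.56 ± 0.30, adjusted p = 0.124). Without doxorubicin replicate 3 the log2 fold change was -0.95 with an adjusted p of 4.51e-05, and this library alone decided the call. IRF9 and IRF2BP1 did not pass (adjusted p = 0.436 and 0.551). After median ratio scaling both passed upwards (adjusted p = 0.0347 and 0.0152), and IRF2BP1 also after quantile normalization (adjusted p = 0.00782). STING1, the adaptor of cGAS, was not analysed here.

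Interferon-induced genes divided into 5 that rose and 4 that fell of 10 tested, with IFI35 not past the threshold. After quantile normalization 6 rose and 2 fell. Over all genes tested 28.2% rose and 48.7% fell, or 37.8% and 30.4% after quantile normalization. The median of the interferon-induced group, 0.29, was 0.58 above the median of all genes. IFI27L1 and IFI27L2 were placed in this group by symbol, and whether interferon induces them was not tested. They are among the genes that rose on both scales, with log2 fold changes of 0.34 and 0.54 as deposited. Both values lie above the group median, and its positive sign on the deposited scale depended on these genes. Without them the middle values would be those of IFI35 (0.25) and IFI16 (-0.47). After quantile normalization they would be those of ISG15 (0.44) and IFI44 (-0.18), and the median would stay positive. IFI6 (chr1:27666061-27672218), a mitochondrial and endoplasmic reticulum protein that opposes apoptosis and viruses, was at 22.4, 20.9 and 20.6 TPM in controls and 47.4, 49.5 and 52.9 TPM after doxorubicin. It rose to 234% of the control mean (log2 fold change 1.19 ± 0.08, adjusted p = 1.16e-06). IFI30, a lysosomal thiol reductase of antigen processing, read 9.39, 7.19 and 7.6 TPM in controls and 25.2, 27.3 and 22.5 TPM after doxorubicin. It had the largest rise of the group, to 310.0% (log2 fold change 1.52 ± 0.12, adjusted p = 4.44e-06). ISG15 (chr1:1001138-1014540), a ubiquitin-like protein and a standard readout of interferon, stood at 232, 213 and 244 TPM in control libraries and 311, 344 and 323 TPM in doxorubicin libraries. It rose to 142% (log2 fold change 0.51 ± 0.07, adjusted p = 1.19e-04). IFI27L2 and IFI27L1, neighbouring genes related to IFI27, changed from 240.0 to 349 TPM and from 25.1 to 31.9 TPM (adjusted p = 8.60e-05 and 0.00999), and both rose on all 3 scales.

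The RNA-binding antiviral IFIT proteins moved the other way. IFIT1 (chr10:89392546-89406486), which binds viral RNA caps, was at 3.26, 2.74 and 3.87 TPM in controls and 1.63, 0.88 and 1.79 TPM after doxorubicin. It fell to 43.6% (log2 fold change -0.83 ± 0.17, adjusted p = 0.00185), also on the other scales. IFIT5 read 8.03, 7.25 and 7.59 TPM in controls and 4.78, 3.91 and 5.74 TPM after doxorubicin. Its fall (log2 fold change -0.58 ± 0.14, adjusted p = 0.00353) was lost after quantile normalization (adjusted p = 0.092). IFI16, a nuclear DNA sensor, was at 59.4, 56.5 and 51.8 TPM in controls and 39.7, 38 and 42.9 TPM in treated libraries. It fell to 71.9% on all 3 scales (log2 fold change -0.47 ± 0.08, adjusted p = 6.53e-04). IFI44 changed from 1.46 to 0.773 TPM, a call lost after quantile normalization (adjusted p = 0.298), median ratio scaling (0.0501) and without doxorubicin replicate 2 (0.0751). IFI35 had means of 16.6 TPM in controls and 19.8 TPM after doxorubicin and an adjusted p of 0.0719, and it passed upwards after quantile normalization (adjusted p = 0.0172) and without control replicate 3 (0.0354). ISG15 and IFI6, and IFIT1 and IFIT5, all carry the response element shown above, and the 2 pairs changed in opposite directions.

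Of 24 core interferon-stimulated genes 7 had a value, among them ISG15, IFI6, IRF9, IFIT1, IFI44 and OAS3. The others, among them MX1, MX2, OAS1, OAS2, IFIT2, IFIT3, IFI27, IFI44L, RSAD2, IRF7 and STAT2, were not analysed here.

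The 14 genes under a mean of 1 TPM were not tested, and in 11 of them the groups did not overlap, 7 higher and 4 lower after doxorubicin, against 78.1% of all listed genes under that level. With 3 libraries a group an exact permutation test cannot give a p under 0.1. CCL4, CCR3, CCR9 and TNFSF8 were listed at 0 in all control libraries, with 0.61, 0.41 and 0.03 TPM for the chemokine CCL4 after doxorubicin, 0.05, 0.1 and 0.27 TPM for its receptor family member CCR3, 0.13, 0.13 and 0.02 TPM for CCR9 and 0.04, 0.67 and 0 TPM for TNFSF8. CCL11, eotaxin, was listed at 0.36, 0.06 and 0.82 TPM in controls and at 0 in all doxorubicin libraries. CCL5, a T cell chemokine, read 0.15, 0.12 and 0 TPM in controls and 0.19, 1.05 and 0.37 TPM after doxorubicin, and IL2RB read 0.01, 0.02 and 0.01 TPM in controls and 0.17, 0.28 and 0.21 TPM after doxorubicin. Both were higher in every treated library, at levels where TPM keeps no record of how many reads there were. TNFAIP6, a TNF-induced hyaluronan-binding protein, was at 1.19, 1.33 and 2.05 TPM in controls and 0.42, 0.35 and 0.65 TPM after doxorubicin. OAS3, which makes the activator of RNase L, read 1.37, 1.6 and 0.94 TPM in controls and 0.59, 0.35 and 0.75 TPM after doxorubicin. Both were lower in every treated library, as was IL31RA, with means of 0.277 TPM in controls and 0.0733 TPM after doxorubicin. TNFAIP8L3 and IFITM10 were higher in every treated library, with means of 0.273 TPM in controls and 0.553 TPM after doxorubicin for the first and of 0.157 TPM in controls and 0.473 TPM after doxorubicin for the second. The groups overlapped for TLR3, the sensor of double-stranded RNA, with means of 0.42 TPM in controls and 0.203 TPM after doxorubicin, for CXCL16, with means of 0.58 TPM in controls and 0.783 TPM after doxorubicin,, and for TNFSF8.

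**Figure D4:**
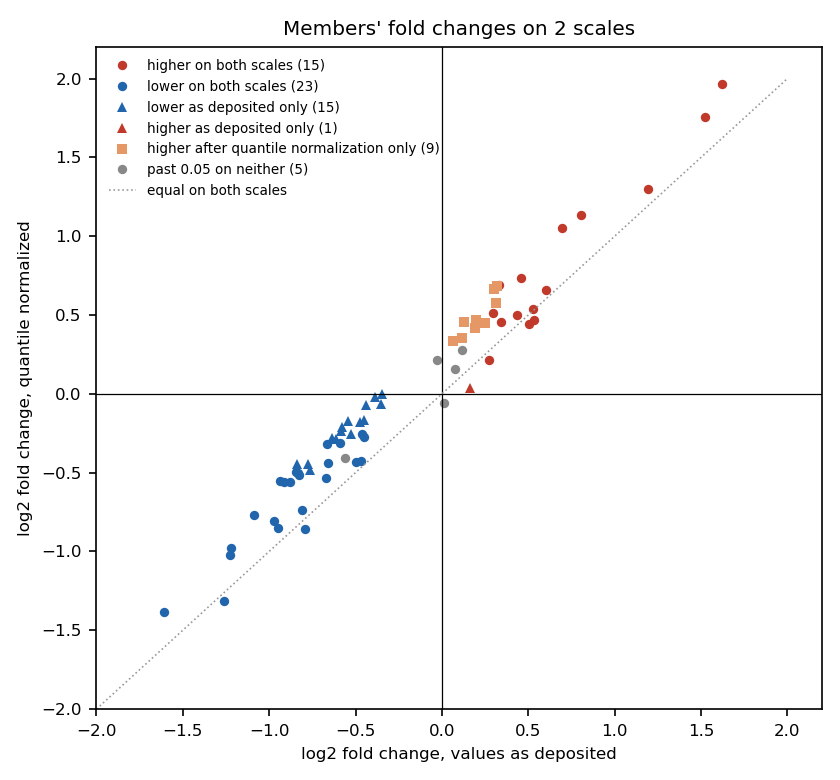
Log2 fold change of each of the 68 tested genes with the values as deposited (x axis) against the same after quantile normalization (y axis), coloured by the test's call on the 2 scales. Most points lie above the dotted line of equality, 15 genes rose and 23 fell on both scales, 15 lost a downward call and 9 gained an upward one.

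Other genes of the same pathways were counted from lists, to be read against the shares over all genes given above (28.2% upwards and 48.7% downwards as deposited, 37.8% and 30.4% after quantile normalization). Of 45 further genes of NF-kB, Toll-like receptor and TNF signalling 18 had a value and 16 were tested, of which 7 rose and 7 fell, or 9 rose and 4 fell after quantile normalization. The 3 with the largest changes all fell: ADAM17, the protease that sheds TNF and its receptors (8.86 to 4.02 TPM, log2 fold change -0.99 ± 0.17, adjusted p = 5.93e-04), CASP8, the caspase of death receptors (10.1 to 5.7 TPM, log2 fold change -0.73 ± 0.12, adjusted p = 4.79e-04), and TANK (27.5 to 17.8 TPM, log2 fold change -0.61 ± 0.12, adjusted p = 0.00114). Of 58 further JAK-STAT and interferon symbols 21 had a value and were tested. The 58 include the older names MB21D1 (CGAS), TMEM173 (STING1) and DDX58 (RIGI, also listed), and these names had no value. Of the 21, 3 rose and 15 fell (71.4%, or 38.1% after quantile normalization), with a median of -0.48. After quantile normalization 4 rose and 8 fell. GBP2 and GBP1, interferon-induced GTPases, changed from 6.98 to 2.62 TPM (log2 fold change -1.14 ± 0.14, adjusted p = 9.09e-05) and from 28.4 to 13.4 TPM (log2 fold change -1.03 ± 0.11, adjusted p = 3.06e-05), and PTPN11, the phosphatase SHP2, from 39.1 to 21.8 TPM (log2 fold change -0.83 ± 0.14, adjusted p = 4.99e-04). Of 16 inflammasome genes 7 had a value and were tested, of which TXNIP (14 to 19.5 TPM, log2 fold change 0.46 ± 0.13, adjusted p = 0.00858) and GSDMD (23.6 to 29.2 TPM, log2 fold change 0.30 ± 0.08, adjusted p = 0.00681) rose and NEK7 (30.4 to 20.3 TPM, log2 fold change -0.56 ± 0.11, adjusted p = 0.00121) fell, while 5 rose and 1 fell after quantile normalization. NLRP3, AIM2 and CASP4 were not analysed here.

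The genes that rose span a median of 11574 bp of genome and those that fell 33174 bp, by the GENCODE 29 annotation on GRCh38. Over all genes tested with a position these medians were 11540 and 64026 bp. As a description across genes, which are not independent, the rank correlation of span with log2 fold change was -0.246 over the 68 genes and -0.441 over 5700 genes. Span and fold change were negatively related in both sets, and the part of gene length in single results was not tested.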

How the data were processed

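RNA of WI-38 cells was sequenced by the authors with paired-end reads on Illumina instruments. The submitters' processing notes name CASAVA, HISAT2, StringTie, RSEM, DESeq2 and edgeR, with no roles or versions, and the mouse build GRCm38, although the listed genes are human. Whether the counting used strand is not given in the sources used here, so overlapping genes cannot be told apart. The authors deposited a value per gene for 6 libraries, taken to be TPM. Beside it they deposited group means in TPM and their own comparison, as a fold change (ratio), its log2 value, its p-value and the p-value after adjustment, and this comparison was not used. By these columns the table holds only genes past a fold change of 1.2 and a p under 0.05, which the TPM means need not show. Because TPM keeps no depth, read depth is unknown for every library and counting intervals are not given.

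On the scale of log2(TPM + 1), the group means were fitted with limma 3.58.1 in R 4.3.3 (eBayes, trend and robust options) to the 5721 of 6499 genes whose mean reached 1 TPM, with Benjamini-Hochberg adjustment over all genes tested. The design foresaw counts and named this fit for normalized values. The fit was tested on simulated data. Alternatives were a pseudocount of 0.1, no filter, a filter at 5 TPM, quantile normalization, median ratio scaling, a replicate block and leaving out each library. The genes, their role groups and the lists were chosen with earlier results of these data known. Named in full were, for each role group, up to 4 genes with the largest change among those past an adjusted p of 0.05 without overlap, and fixed key members. For the others, means or counts are given, with the settings, other than the replicate block, that end a call. The values of 1 gene are not reported here. Positions are from GENCODE 29 (GRCh38).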

Additional observations from a re-analysis of the deposited data

How the results depend on the processing

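The count of genes that passed was 54 (16 higher, 38 lower) and the median log2 fold change -0.45. A mean of at least 5 TPM left 24 genes lower and a median of -0.37, with 48 genes tested, where the median of all genes was 0.05 and the members lay 0.41 below it, and no filter gave a median of -0.35 over all 82, with all genes at -0.15. Quantile normalization left 23 lower with a median of -0.17, and median ratio scaling gave 28 higher with a median of -0.24, the medians of all genes having moved to -0.01 and -0.08. With a fold change over 1.5 added, 31 passed, 6 higher and 25 lower. No share of all genes past that limit is given, and the median of all genes on this scale was -0.28. These 31 are thus not read as a direction of the members. Shares of all genes are not given for the filter settings or for leaving out 1 library either. Leaving out 1 library gave 48 to 54 (13 to 16 higher, 33 to 40 lower), a median of -0.50 to -0.40, and 11 to 13 genes under the filter without overlap. The direction of LIF turned after quantile normalization (-0.061) and without 1 library (-0.057 to 0.050), that of TNFAIP8 after quantile normalization (0.21), median ratio scaling (0.19) and without 1 library (-0.099 to 0.019), and NFKBIA (-0.0013 to 0.15) and IRF9 (-0.021 to 0.22) turned without 1 library. None of these had passed the test, and the cause was not tested. Same-numbered libraries correlated at -0.063, -0.193 and -0.23 in their deviations, which gives no sign of pairing by number. Deviations from means of 3 libraries are tied to each other, so these values cannot exclude a paired design. A replicate block, as in a paired design, gave 49 (13 higher, 36 lower), with the adjusted p of JAK2, IRF2, TNFRSF12A, TRAF3IP2 and TNFSF4 at 0.0683, 0.057, 0.0594, 0.0604 and 0.0711, above 0.05. Unknown depth limits what can be said of genes under 1 TPM.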
